A study of Mus musculus with 2 samples.

Results

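The peroxisome proliferator-activated receptors (PPARs), their retinoid X receptor (RXR) partners, the PGC-1 coactivators and 3 lipid-handling targets were read in mouse bone marrow-derived macrophages (BMDMs) with and without IL-4. The 10 genes were Pparg, Ppard, Ppara, Rxra, Rxrb, Ppargc1a, Ppargc1b, Fabp4, Cd36 and Plin2. Every probe whose RefSeq accession belonged to a member was taken, which gave 14 probes in 23 spots, of 39424 probes for 32448 genes in 43020 spots on the array. Both cultures were BMDMs of male Crif1 f/f mice at 8 weeks of age, so that Crif1 is floxed in the treated and the untreated cells alike, grown from femur and tibia marrow with M-CSF. One culture was left untreated and the other received IL-4 for 18 h, and the IL-4 dose of these arrays is not given in the sources used here. Cy3-labelled RNA of each was read on 1 Agilent array of a single colour, and the arrays lay on the same slide with the same scan time. With 1 array per condition there is no replicate check, the precision is limited by the number of arrays and the conditions could not be tested against each other. The intensities given are background-subtracted values in arbitrary units, before scaling, and the log2 differences are IL-4 minus untreated after subtracting each array's own 75th percentile (9.84 on the untreated and 9.94 on the IL-4 array). In such whole-culture RNA, fewer cells of a type and less RNA per cell cannot be told apart.

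PPARs are nuclear receptors that sense fatty acids and their derivatives. Each binds DNA paired with an RXR, at direct repeats of a hexamer with a base between the repeats, and recruits coactivators such as PGC-1α and PGC-1β. PPARγ is best known as the driver of fat cell formation and is also a regulator of lipid uptake in macrophages, in which IL-4 signals through STAT6. Fabp4, which encodes a fatty acid carrier, Cd36, which encodes a receptor for fatty acids and oxidised lipoprotein, and Plin2, which encodes a coat protein of lipid droplets, are classical PPAR targets.

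The sequences just upstream of the member genes show where the PPAR and RXR hexamer occurs in them. RefSeq promoter windows of 250 bases before a start site (build GRCm38.p6) were at hand for 8 of the 10 genes, 12 windows in all. No window of Fabp4 was at hand, and Ppargc1b is not shown. The motifs were searched on both strands. The direct repeat of AGGTCA with 1 base between the repeats was in 0 of the 12 windows and in 0.0335% of all 32851 windows of this length. The single hexamer AGGTCA, which is also contained in that repeat, was in 5 of the 12 windows and in 4607 (14%) of all 32851. TTC and GAA with 4 bases between them, the letters of a STAT6 site, were in 0 of the 12 windows and in 5.85% of all. Each hexamer found is shown within 30 bases, with the hexamer or its reverse complement in capitals and its position counted from the start site.
Pparg, chr6:115361104-115361133, + strand, hexamer at -28: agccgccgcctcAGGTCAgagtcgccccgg
Pparg, chr6:115362319-115362348, + strand, hexamer at -9: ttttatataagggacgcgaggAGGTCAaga
Rxra, chr2:27709193-27709222, + strand, hexamer at -87: tagaaatgggtgTGACCTgagtaatggtca
Rxra, chr2:27709232-27709261, + strand, hexamer at -48: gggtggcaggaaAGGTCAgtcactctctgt
Cd36, chr5:17836107-17836136, - strand, hexamer at -228: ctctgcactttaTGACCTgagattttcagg
Plin2, chr4:86670260-86670289, - strand, hexamer at -218: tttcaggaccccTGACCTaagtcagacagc
Of the 3 Pparg windows, 2 held the hexamer, both close to the start site, and in Rxra both hexamers lay in the same window. The window of the Pparg start site farthest downstream, chr6:115421816-115422065 on the + strand, held no match to any of these motifs and is shown because Pparg carries the largest measured difference among the members.
Pparg, start site farthest downstream, chr6:115421816-115422065, + strand: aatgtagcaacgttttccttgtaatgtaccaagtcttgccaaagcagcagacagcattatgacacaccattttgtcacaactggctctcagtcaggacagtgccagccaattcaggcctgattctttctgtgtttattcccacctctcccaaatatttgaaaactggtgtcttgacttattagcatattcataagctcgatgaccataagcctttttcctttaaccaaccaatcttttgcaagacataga
It had a GC content of 40.8%, against 82.4% and 63.6% in the other two Pparg windows. A match in these windows is a description of letters and not of binding, and the arrays do not show from which start site the RNA came.

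Of the 10 member genes, 9 were detected, meaning flagged as well above background by the scanner software, on at least 1 array and 8 on both. Pparg measured at least 2-fold higher with IL-4, the only member whose value or bound was past 2-fold in either direction with the scaling used here. Ppargc1b, detected on the IL-4 array only, was at least 1.84-fold higher, so whether it passed 2-fold is not settled. Over all 19743 genes detected on at least 1 array, 2.86% were 2-fold higher or more and 4.47% were 2-fold lower or more. In these shares a probe without a RefSeq symbol counts under its array name. Many of the calls are bounds from genes detected on 1 array only, 201 of 564 higher and 613 of 883 lower. The 1 member of 9 higher and 0 of 9 lower are read beside those shares. The median log2 difference of the 8 members measured on both arrays was -0.03, with 4 above 0 and 4 below 0, beside a median of -0.01 over the 17242 genes measured on both arrays. The counts on each side of 0 depend on how the arrays were scaled. The median over all genes became 0.20 when each array was centred on its median and 0.31 when the arrays were scaled on spike-in controls, and the members' median became 0.18 and 0.29.

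**Figure D1:**
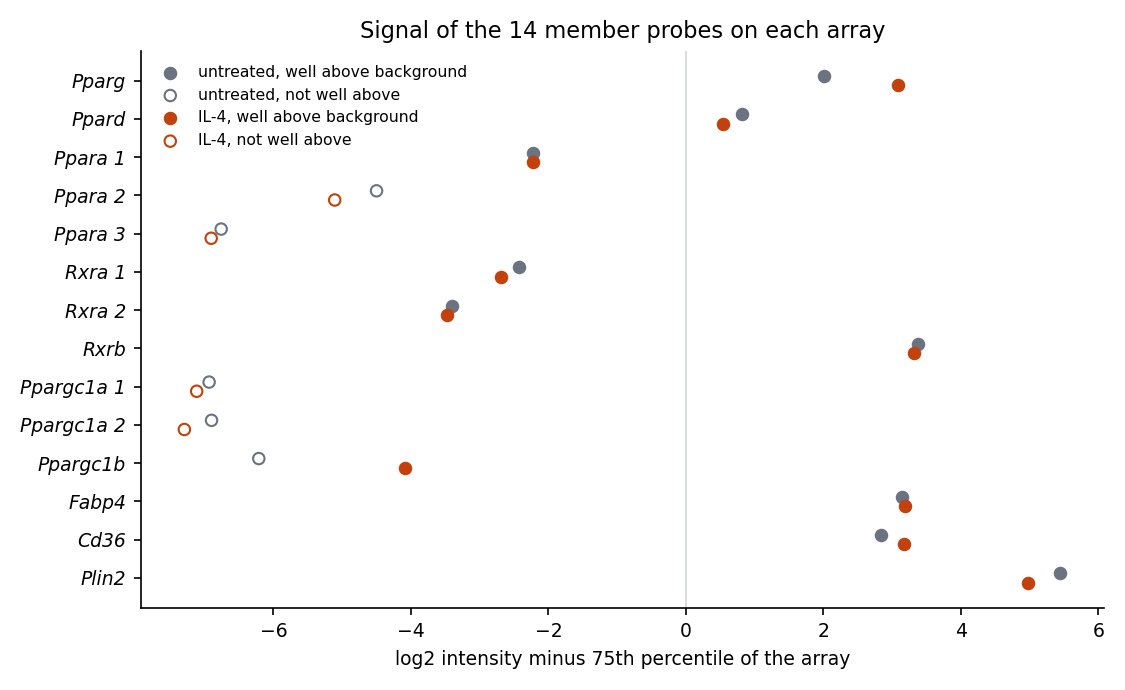
Scaled log2 signal of the 14 member probes on the untreated (grey) and the IL-4 array (orange), on the x axis in log2 units relative to the 75th percentile of each array, where filled points are well above background and open points are not; the probes of Ppara, Rxra and Ppargc1a are numbered in order of brightness. Pparg stands apart between the arrays, Ppargc1b is filled on the IL-4 array only, and both Ppargc1a probes and 2 of the 3 Ppara probes are open on both arrays. Signals of different probes are not comparable with each other.

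Pparg, the gene of PPARγ, was measured by 1 probe printed in 10 spots, so that its error between spots could be read directly. On the untreated array the intensity of the 10 spots ran from 3459 to 3939 with a median of 3677 (coefficient of variation 3.66%). On the IL-4 array it ran from 7529.5 to 8889 with a median of 8431 (coefficient of variation 4.81%). All 10 spots of the IL-4 array lay above all 10 of the untreated array. The log2 difference was 1.09 ± 0.067 (SD, n = 10 spots), a 2.12-fold higher signal with IL-4, and single spots gave 0.92 to 1.17. The lowest spot stood below the rest, and without it the SD of the other 9 spots was 0.037, with values from 1.05 to 1.17. The spots share the RNA, the labelling and the array, so this SD covers spot error and says nothing of how cultures vary. The error that the software gives for 1 spot, 10% on each array, was 0.20 for the log2 difference. That error is wider than the margin by which Pparg passed 2-fold. Under the other scalings the Pparg difference ran from 1.03 to 1.41, at or beyond 2-fold in each.

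**Figure D2:**
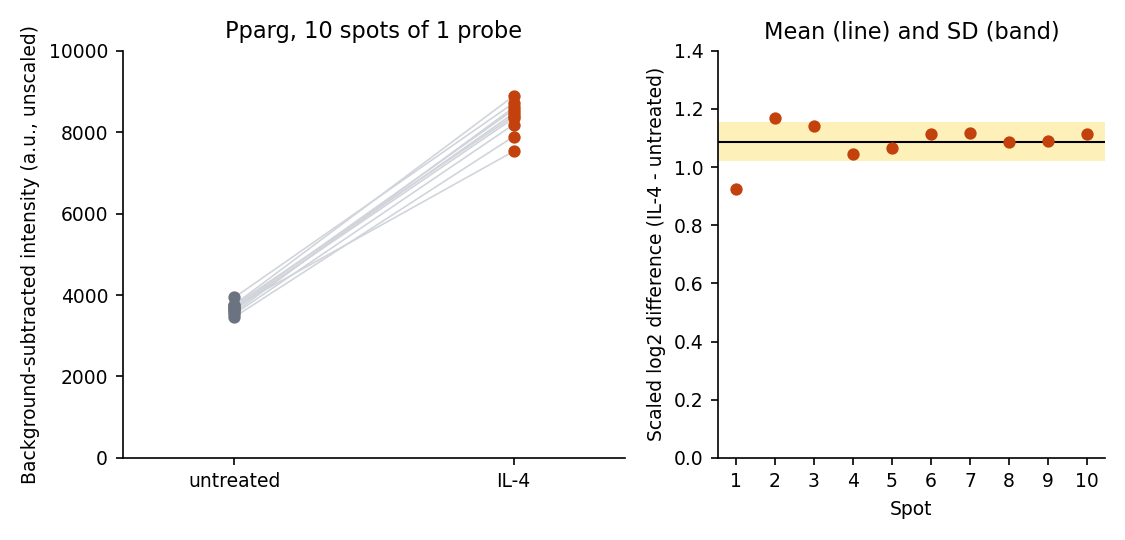
Left, background-subtracted intensity (arbitrary units, unscaled) of the 10 spots of the Pparg probe on the untreated and the IL-4 array, with lines joining spots of the same number in the files' order; right, the scaled log2 difference of each spot, with the mean (line) and 1 SD on each side (band). The untreated spots sit between 3459 and 3939 and the IL-4 spots between 7529.5 and 8889, and 9 of the 10 differences lie between 1.05 and 1.17.

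The other two PPARs differed less. Ppard encodes PPARδ, a receptor present in most tissues that is tied to fatty acid oxidation. Its probe gave 1620 on the untreated and 1429 on the IL-4 array, a log2 difference of -0.28, or 1.21-fold lower with IL-4, which turned to 0.04 with spike-in scaling. Probes of similar signal printed in 10 spots had a median SD between spots of 0.056, so the difference exceeds spot error, but the error that the software gives for 1 spot (10% on each array, 0.20 on the log2 scale for the difference) is close to it in size. Ppara encodes PPARα, which governs fatty acid oxidation in liver. Its brightest probe gave 195 and 209, a log2 difference of 0.00 with a spot SD of 0.10, which lay between -0.05 and 0.32 under the other scalings. The other 2 Ppara probes, at 40.4 and 28.4 and at 8.44 and 8.17, lay below the well-above-background flag on both arrays and have no fold. The 3 probes thus do not speak with the same weight, and the level of Ppara rests on 1 of them. Pparg's log2 difference exceeded that of Ppard by 1.37 and that of Ppara by 1.09. Over 9 other settings these gaps ran from 1.32 to 1.37 and from 0.96 to 1.09. Most of the 9 settings shift all probes of an array alike, which cannot change a gap. Only quantile normalization, cyclic loess and normexp background correction could move it.

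The RXR partners showed no difference near 2-fold. Rxra, the gene of RXRα, had 2 probes well above background on both arrays. The brighter gave 170.6 untreated and 152 with IL-4, a log2 difference of -0.27 with a spot SD of 0.11, which turned to 0.05 with spike-in scaling. The dimmer gave 86.3 and 87.8, a difference of -0.07 with a spot SD of 0.17, within spot error. The pair differ by an amount of the size of their spot errors. Rxrb, the gene of RXRβ, gave 9521 and 9782, a log2 difference of -0.06 with a spot SD of 0.050. Its sign was positive with median scaling, with no scaling and with spike-in scaling, where it reached 0.26, so no direction is given for Rxrb. The third RXR gene, Rxrg, is not a member but completes the family, and its brighter probe gave 1040.5 and 1195, a log2 difference of 0.10 with a spot SD of 0.058. Its other probe, at 6.09 and 5.88, missed the well-above-background flag on both arrays. Pparg's log2 difference was 1.36 above that of Rxra (1.21 to 1.36 over the 9 settings) and 1.15 above that of Rxrb (1.08 to 1.16).

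The PGC-1 coactivators were dim. Ppargc1a encodes PGC-1α, the coactivator of mitochondrial biogenesis in brown fat and muscle. Its 2 probes gave 7.47 and 7.06, and 7.66 and 6.24, untreated and IL-4 in turn. Both probes missed the well-above-background flag on both arrays, and no fold is given for Ppargc1a. The lowest intensity that the software called well above background was 29.2 on the untreated and 27.9 on the IL-4 array. Ppargc1b encodes PGC-1β, the sister coactivator of oxidative metabolism. Its probe gave 12.3 on the untreated array, not well above background there, and 57.5 with IL-4, which was. Read against the lowest flagged signal of the untreated array, the IL-4 signal was at least 1.84-fold higher, a bound of 0.88 on the log2 scale. The bound ran from 0.82 to 1.29 under the other scalings and was 0.36 after normexp background correction. This bound thus passed 2-fold under some settings and not under others. Before background subtraction the median pixel of its spot was 79.5 untreated and 128 with IL-4, beside 57 for the negative controls on each array. The software's error for its spot was 53.7% of the signal untreated and 14.8% with IL-4.

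**Figure D3:**
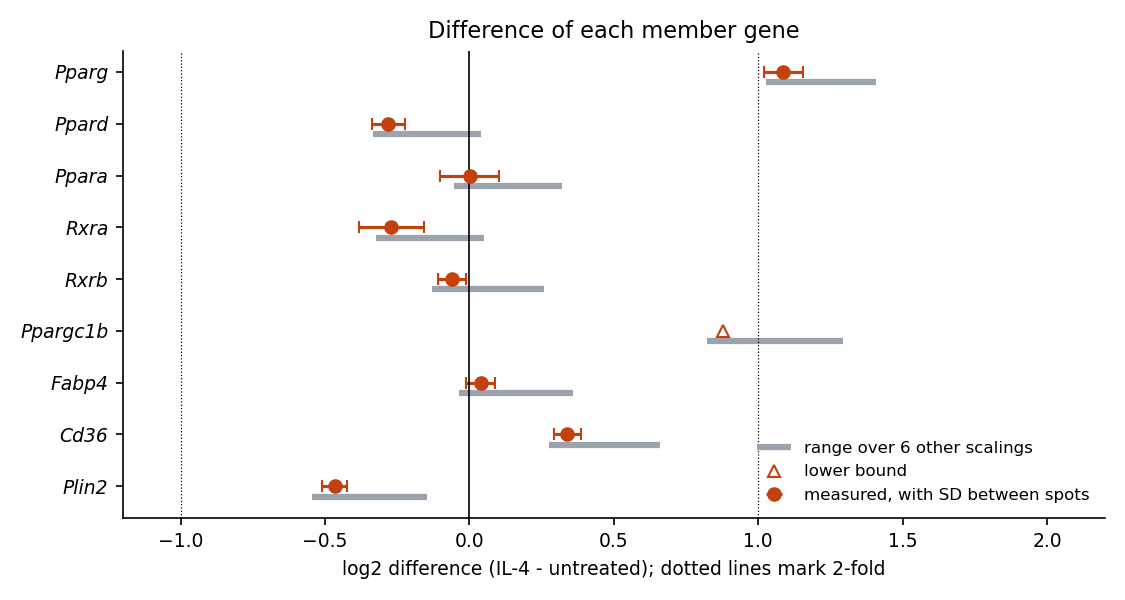
Log2 difference, IL-4 minus untreated, of the 9 member genes with a value (points), with the SD between spots (the probe's own 10 spots for Pparg, the median SD of 10-spot probes of similar signal for the rest) and, in grey, the range under the other scalings between arrays; the open triangle is a lower bound and the dotted lines mark 2-fold. Pparg lies past 2-fold in each scaling, Cd36 above 0 and Plin2 below 0 in each, and the ranges of Ppard, Ppara, Rxra, Rxrb and Fabp4 cross 0.

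The 3 lipid-handling targets differed among themselves. Cd36 gave 6537 untreated and 8860 with IL-4, a log2 difference of 0.34, or 1.26-fold higher, with a spot SD of 0.047. The difference exceeds this SD and the error of 0.20 that the software gives for it, and it kept its sign under the other scalings, from 0.27 to 0.66. Fabp4 gave 8109 and 8924.5, a log2 difference of 0.04 with a spot SD of 0.051, within spot error. Its sign was negative with quantile normalization and with the 75th percentile of the probes detected on both arrays, so no direction is given for Fabp4. Plin2 gave 39900 untreated and 30926 with IL-4, a log2 difference of -0.47, or 1.38-fold lower, with a spot SD of 0.044 from 8 probes of similar signal. Plin2 stayed below 0 under the other scalings, from -0.55 to -0.15. Compared with each other, which cancels a shift common to all probes, the Cd36 difference lay 0.30 above that of Fabp4 (0.30 to 0.32 over the 9 settings) and 0.81 above that of Plin2 (0.81 to 0.85), and Fabp4 lay 0.51 above Plin2 (0.51 to 0.53). Pparg exceeded Cd36 by 0.75 (0.68 to 0.75), Fabp4 by 1.05 (0.99 to 1.06) and Plin2 by 1.55 (1.52 to 1.58). Each of Cd36, Fabp4 and Plin2 rests on 1 probe in 1 spot. The software's error was 0.20 for the difference of each, and a gap between them carries the error of both genes. None of their spots or those of the other members was marked as an outlier or saturated.

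Around the members stand the other parts of the pathway, 90 genes in 4 lists, of which 77 were detected on at least 1 array and 74 on both. Of the 77, 2 were at least 2-fold higher (Vdr, and Olr1 as a bound) and 1 was at least 2-fold lower (Acot1), beside the 2.86% and 4.47% over all genes. The median log2 difference of the 74 was -0.07, with 31 above 0 and 43 below 0. Among the receptors that also pair with RXR, 10 of 13 were detected on both arrays, with a median of 0.02, 5 above 0 and 5 below 0. Vdr, the vitamin D receptor, gave 903 untreated and 2104 with IL-4, a log2 difference of 1.12 with a spot SD of 0.057, and it was the 1 receptor of this list past 2-fold. The brightest others were Nr1h2, the gene of the oxysterol receptor LXRβ, with 8398 and 9326 (0.05), and Rara, a retinoic acid receptor, with 4342 and 6076 (0.39, and 0.47 by its other probe). Nr4a1, an orphan receptor chosen here after its value was seen, was the lowest at -0.76 by the brightest probe of each gene. Nr4a2, also chosen after its values were seen, gave -0.007 by its brightest probe but -0.89 by its other probe.

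All 16 PPAR coregulators were detected on both arrays and 0 were past 2-fold with the scaling used here. Their log2 differences ran from -0.50 to 0.42 with a median of -0.17, and 11 lay below 0 and 5 above. Ncoa3, a coactivator, gave 9381 untreated and 10555 with IL-4, a log2 difference of 0.07 (-0.08 by its other probe). The highest was Pprc1, a relative of the PGC-1 coactivators chosen here after its value was seen, with 186 and 266 (0.42).

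Of 35 genes for lipid uptake, transport and storage, 28 were detected on at least 1 array and 25 on both, with a median of -0.06, 11 above 0 and 14 below 0. Olr1, a scavenger receptor for oxidised lipoprotein like Cd36, gave 6.35 untreated, not well above background, and 87.3 with IL-4, and was at least 2.79-fold higher with IL-4. Lpl, the lipase that frees fatty acids from lipoproteins, gave 18495 and 33538, a log2 difference of 0.76 (0.58 by its other probe). Fabp5, a relative of Fabp4, gave 168130 and 125220, a difference of -0.52. The direction thus differed between members of the list, as it did between Cd36 and Plin2, and its values ran from -0.79 to 0.82 among genes measured on both arrays. The highest was that of Adipoq, which is also read below as an adipocyte marker, as are Plin1 and Cidec of this list.

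Of 26 fatty acid oxidation genes that PPARs regulate, 23 were detected on both arrays, with a median of -0.07, 10 above 0 and 13 below 0. Acot1, an acyl-CoA thioesterase, gave 597 and 227, a log2 difference of -1.50, or 2.82-fold lower with IL-4, while its close relative Acot2, which falls short of 2-fold, gave 140 and 117 (-0.35), and whether the probes tell these similar genes apart was not tested. The brightest others were Acaa1a, a peroxisomal thiolase, with 20635 and 24630 (0.16), and Acadvl, a mitochondrial acyl-CoA dehydrogenase, with 8803 and 10130 (0.10). Acadm, the medium-chain acyl-CoA dehydrogenase chosen here after its value was seen, had the highest difference of the list at 0.80, with 5356 and 10015.

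**Figure D4:**
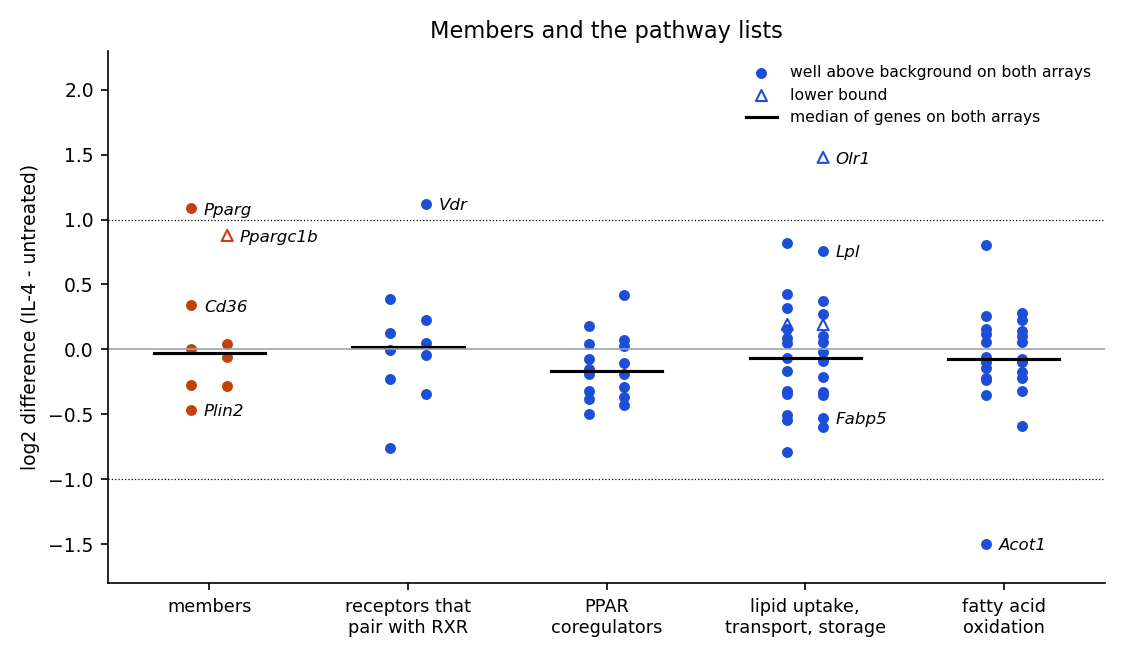
Log2 difference, IL-4 minus untreated (y axis), of the member genes (orange) and of the genes of 4 pathway lists (blue), where filled points are genes detected on both arrays, triangles are lower bounds, black bars are medians over the filled points and dotted lines mark 2-fold. Pparg, Vdr and the Olr1 bound lie above 2-fold and Acot1 below, and the medians of the groups lie between -0.17 and 0.02.

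The RNA was checked against its label and against other cell types that use the same genes. The paper's methods report high BMDM purity by flow cytometry for macrophage surface markers, without naming the cultures of these arrays. The IL-4 response genes were higher on the IL-4 array, with log2 differences of 7.76 for Arg1, 3.83 for Chil3 and 2.42 for Mrc1 and a bound of 9.22 for Retnla. All 7 macrophage markers with a named probe were detected on both arrays, with a median log2 difference of -0.71, 5 below 0 and 2 above. Of these 7, 3 were 2-fold lower or more with IL-4, beside 4.47% over all genes, namely Cd14 (-1.42), Fcgr1 (-1.23) and Mertk (-1.14). Itgam gave -0.71 by its brightest probe but -0.27 and -0.24 by its others. Lyz2 gave -0.70, Csf1r 0.09 (-0.11 and 0.05 by its other probes) and Adgre1 0.17 (0.17 by its other probe). Adipocytes share Pparg, Fabp4, Cd36 and Plin2 with macrophages. Of 6 adipocyte markers, 2 were detected without IL-4 and 4 with it. Adipoq gave 203 and 384 (0.82), Cfd gave 35.4 and 68.3 (0.85), and Lep and Cidec were detected on neither array. Plin1, at 17.9 and 35.8 (a bound of 0.19), and Retn, at 31.1 and 33.2, were dim and detected with IL-4 only. The Retn intensities were nearly equal, so its detection with IL-4 only does not show a higher signal. The summed intensity of the 6 was 302 untreated and 539 with IL-4. Endothelial cells use Cd36 and Fabp4, and 4 of 5 endothelial markers (Cdh5, Pecam1, Kdr and Gpihbp1) were detected on both arrays, with summed intensities over the list of 3079 and 3489. All 4 fibroblast markers (Col1a1, Col3a1, Pdgfra and Dcn) were detected, with sums of 90667 and 82727. Of the remaining markers, 2 of 7 T and B cell markers (Cd3e and Cd4), 5 of 6 granulocyte markers with a named probe (Elane, Mpo, Prtn3, Prg2 and Siglecf) and 1 of 4 dendritic cell markers (Zbtb46) were detected on both arrays, with log2 differences from -0.52 to 0.37. The sums add unscaled signals of different probes, also of markers not detected, so they do not measure how many cells of a type there were. The part of such cells in the members' values was not tested.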

How the data were processed

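RNA of untreated and IL-4-treated BMDMs was read on 1 array each. The files the authors deposited come from Agilent's Feature Extraction (version 10.10.1.1, default settings), and each spot's intensity in them is background-subtracted and unscaled. The authors also deposited processed log2 values, whose median is 0.16 for the untreated and 0.016 for the IL-4 column. Their IL-4 minus untreated difference equals that of the scaled intensity within 0.01 for 39321 of 39424 probes and for all 14 member probes, while the tool and the reference each probe is centred on are not known. Spots were averaged on the log2 scale, outlier spots were left out, each array's own 75th percentile was taken off and a gene was read from its brightest probe. The well above background flags were used as deposited, and a probe dim on 1 array got a lower bound against the lowest signal flagged well above background there. Genes were named through RefSeq accessions (27234 of 39429 probes, 20659 symbols), and a probe without such a symbol was counted as a gene under its array name. Spot error came from 232 probes printed in 10 spots, with a median SD of 0.067. The members and lists were chosen with earlier results of these data known. Besides the members, the genes named are those of the lists past 2-fold, the 2 brightest others of each pathway list, Rxrg, the IL-4 response genes and the markers above background, unless said otherwise and apart from 1 item that is not reported here. Normexp used the median pixel signal with an offset of 50, since the files hold no mean signal. The step that calls changed genes was run on simulated data with large changes planted in probes clear of background. That check does not cover bounds or dim probes and says nothing of how sure the counts are. Software was R 4.3.3 with limma 3.58.1 and Python 3.11.15 with pandas 2.3.3 and numpy 2.4.6.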

Additional observations from a re-analysis of the deposited data

How the results depend on the processing

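No paired analysis was possible because there is a single array for each condition. No member reached 2-fold lower under any of the 16 alternatives tried for that count. The count of members at least 2-fold higher was 2 instead of 1 with median scaling, quantile normalization, cyclic loess and spike-in scaling. It was also 2 with the authors' processed values and with no filter on dim probes, both read without bounds. In place of 2-fold, a cutoff of 0.58 on the log2 difference gave 2 members, and cutoffs of 1.5 and 2 gave 0. The members' median log2 difference of -0.03 became 0.18 with median scaling, 0.069 with no scaling, -0.085 with the 75th percentile of probes detected on both arrays and 0.29 with spike-in scaling, where the median of all genes was 0.20, 0.085, -0.070 and 0.31. These scalings take a single amount off all probes of an array, so the members and all genes moved alike. Why the scalings differ from each other was not tested.

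Over all genes, 564 were higher by 2-fold or more and 883 lower, so that 39.0% of those past 2-fold were higher. This share was 59.5% with median scaling, 60.1% with quantile normalization, 52.3% with cyclic loess, 48.8% with no scaling, 69.0% with spike-in scaling, 52.6% with normexp, 34.0% with the 75th percentile of probes detected on both arrays and 34.0% with the authors' values. The higher genes numbered 1011 with spike-in scaling, 295 with normexp, 848 with the authors' values, 363 with only genes detected on both arrays, 1389 with no filter and 1226, 228 and 116 with cutoffs of 0.58, 1.5 and 2. With median scaling 564 genes were lower, with quantile normalization 533, with spike-in scaling 454, and there were 266 with normexp, 1645 with the authors' values, 270 with both arrays only, 4074 with no filter and 2184, 302 and 89 with the 3 cutoffs. The authors' values were read without bounds, so a gene dim on 1 array was counted by its plain difference. Their counts and share thus differ from the main ones also in this rule. In the pathway lists, 2 were higher and 1 lower. The higher count was 4 with median scaling, 5 with spike-in scaling, 1 with normexp, 1 with both arrays only and 5, 0 and 0 with the 3 cutoffs. The lower count was 2 with the probe of largest difference, 2 with no filter and 5, 0 and 0 with the 3 cutoffs.

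Dim signal limits Ppargc1a, whose probes gave no value, and Ppargc1b, whose difference without a bound was 2.12 with the authors' values.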
